A study of Mus musculus with 2 samples.

Results

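These measurements concern 31 mouse genes of neurons and of the REST-CoREST repressor: the repressor gene Rest, the zinc finger gene Insm1 and 29 neuronal genes, most of them with known REST sites. The genes were listed by name, with earlier results of these data known, and they are 31 of the 21947 genes that have a probeset in the table. All 31 had at least 1 probeset named with that gene alone, with Scn2a listed under its older symbol Scn2a1. The cells came from 1 embryonic stem cell line of the mouse, Bry-GFP, which reports the mesoderm gene Brachyury. FLK1-positive cells of day 3 embryoid bodies received either DMSO, a solvent, as the control or compound B at 300 nM, which inhibits the histone demethylase LSD1. The CD41 compartment was sorted on day 2 of culture, and the labels name these cells hemogenic endothelium, the vessel-lining cells that give rise to blood. Each condition has 1 Affymetrix array, so there are no replicates, no test between the conditions was possible, and every difference describes these 2 arrays.

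REST is a zinc finger protein that binds a long element called RE1 beside many genes of neurons and holds them silent outside the nervous system. One of its repressor domains recruits CoREST, encoded by Rcor1, which carries LSD1 (Kdm1a) and the histone deacetylases Hdac1 and Hdac2. LSD1 also binds the SNAG domain, a short N-terminal stretch shared by Gfi1, Gfi1b, Insm1 and the Snail proteins. Comparing the arrays addresses which of the neuronal genes differ between sorted cells with and without the LSD1 inhibitor.

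The RE1 element is shown here because it is the sequence that REST binds. It was searched as the left part TTCAGCACC and the right part GGACAGCGC, 2 bases apart, on both strands, with at most 3 mismatches over the 18 letters. The windows were the RefSeq promoters of assembly GRCm38.p6, 300 bases each with 250 before the gene's start, and 37 of 32851 windows (0.113%) held such a sequence. Of the members, 21 had a window, and 3 of these had a match: Gria2, Celsr3 and Syn1. Gad2, from a list of further REST targets, and Crip2, a LIM protein gene outside the lists, also had one and are shown because they passed the size rule given below; Crip2 was chosen after its value was seen. Ina and Tubb3 are shown as members whose best sequence lies beyond 3 mismatches. Capitals mark the letters that match the element, and each sequence is written 5′ to 3′ along the element.
Gria2, chr3:80802969-80803028, plus strand, 1 mismatch: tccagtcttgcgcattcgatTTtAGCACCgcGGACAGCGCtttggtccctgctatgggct
Celsr3, chr9:108825898-108825957, plus strand, 2 mismatches: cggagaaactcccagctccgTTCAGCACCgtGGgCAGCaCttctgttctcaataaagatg
Syn1, chrX:20921111-20921168, minus strand, 2 mismatches: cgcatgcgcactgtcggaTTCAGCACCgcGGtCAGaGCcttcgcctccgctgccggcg
Gad2, chr2:22622141-22622200, plus strand, 3 mismatches: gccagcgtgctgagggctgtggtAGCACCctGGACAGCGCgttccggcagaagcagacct
Crip2, chr12:113140061-113140120, plus strand, 3 mismatches: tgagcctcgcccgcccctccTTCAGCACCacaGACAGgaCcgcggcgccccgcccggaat
Ina, chr19:47014633-47014692, plus strand, 6 mismatches: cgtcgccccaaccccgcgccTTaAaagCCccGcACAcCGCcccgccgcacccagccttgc
Tubb3, chr8:123411395-123411454, minus strand, 7 mismatches: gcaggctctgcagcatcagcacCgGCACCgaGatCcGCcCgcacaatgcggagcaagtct

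In the window of Gria2 the element lay 173 to 154 bases before the start, in that of Celsr3 127 to 108 bases and in that of Syn1 232 to 213 bases before it. The exact left part was in 0.371% of all windows and the exact right part in 0.405%, either alone or within the longer match. The median window had 7 mismatches at its best position, so the 7 of Tubb3 are the level of an ordinary window. A match describes letters and is not a measured binding site. RE1 elements also lie in introns and far from a start, which these windows do not cover. The search kept the parts 2 bases apart, so parts with another spacing were missed. In the window of Scg2 the exact left part runs directly into letters close to the right part, and this counted as 7 mismatches. Rest, Insm1, Syt4, Stmn2, Snap25, Gap43, Vgf, Nefl, Nefm and Nefh have no entry among the windows.

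The array carries several probesets per gene, with values read as log2 intensity. A probeset was called bright if it reached 3.17, the table's median value, in at least 1 array. A gene was measured if at least 4 of its probesets were bright, as 15087 genes were. Its level in an array is the median of these probesets, and its difference is the median of their differences, inhibitor minus DMSO. A difference can therefore depart from the gap between the 2 levels. The size rule asks for a 2-fold difference (1 in log2) that 75% or more of the gene's bright probesets share in direction. The SD given with a difference is taken across the gene's bright probesets, so it is no replicate error. Levels of different genes rest on different probes and are not compared.

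Of the members' 475 probesets 334 were bright, or 70.3%, against 77.2% of all probesets with 1 gene. The 28 measured members are those that passed this filter, which favours a gene that is high in either array. Scg2 had 2 bright probesets of 5, Neurod1 2 of 3 and Dcx 3 of 12, and these 3 were not measured. When all probesets were counted, 6 of the 31 members had a level below the table's median in both arrays. Rest, Gap43, Tubb3 and Nefl were the members with every probeset bright.

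**Figure D1:**
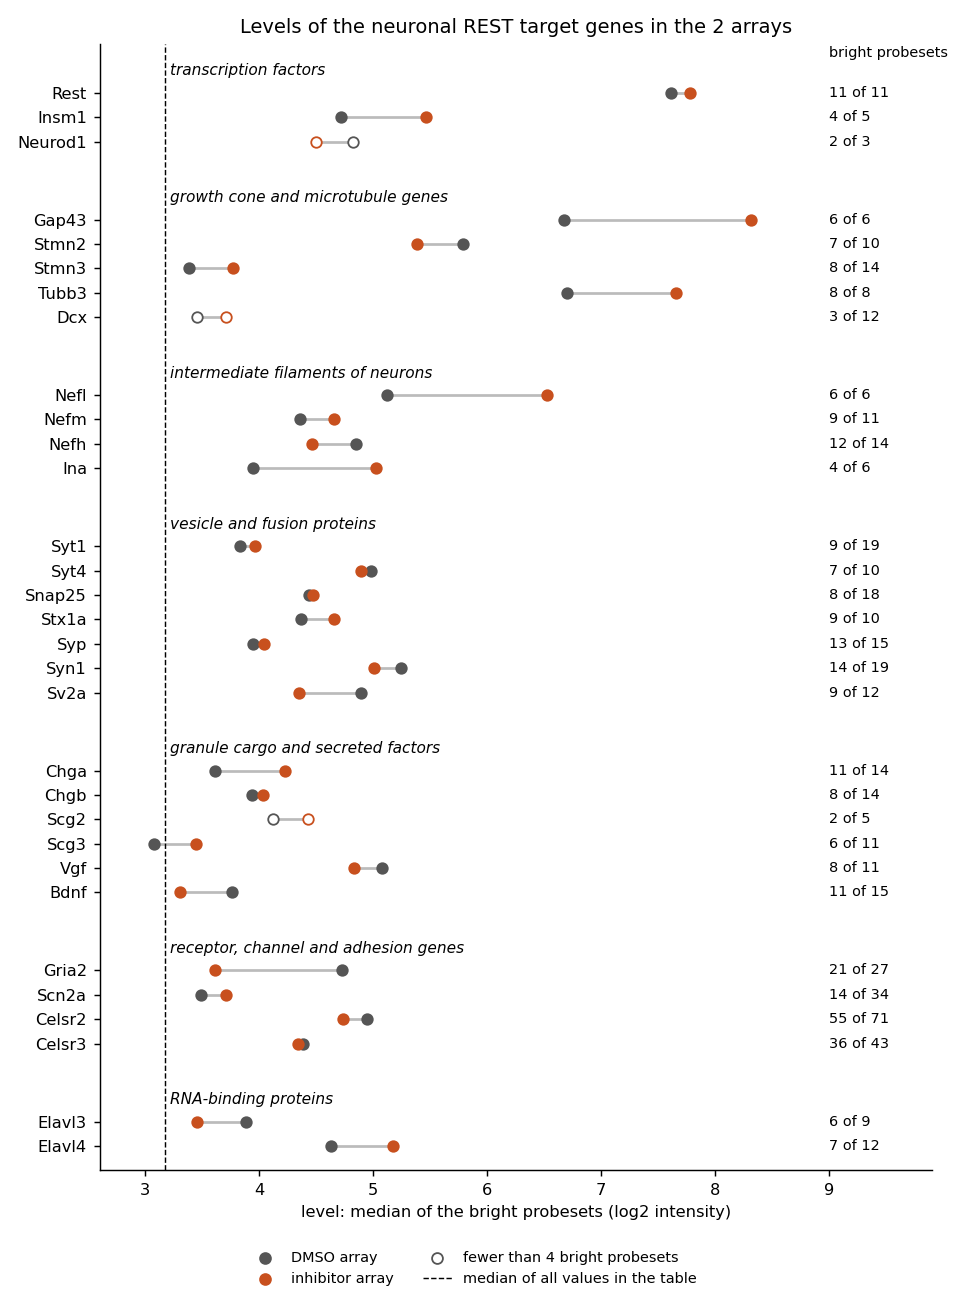
Level of each member in the DMSO array (grey) and the inhibitor array (orange) in log2 intensity, the median of its bright probesets, grouped by role, with the number of bright probesets at the right. Open circles are the 3 genes with fewer than 4 bright probesets, the dashed line is the table's median of 3.17, and the widest upward gaps are those of Gap43, Nefl and Ina.

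The members higher past the size rule were 1 of 4 measured genes of the growth cone and microtubules and 2 of 4 neuronal intermediate filament genes. In the same groups Stmn2 differed by -0.40 and Nefh by -0.26. The inhibitor array was higher past the size rule for 3 of the 28 measured members, Gap43, Nefl and Ina, where 1.72% of all measured genes were. No measured member was lower past the rule, and 0.563% of all genes were. With a 1.5-fold rule in place of 2-fold, Tubb3 was also higher, making 4 members where 5.85% of all genes passed, and Gria2 was lower, making 1 member where 2.66% did. The median difference of the 28 members was 0.12, and that of all measured genes was 0.06. This order turned when bright meant the 75th percentile of all values or above, at 0.05 for the 16 members then measured and 0.08 for all genes. Their differences ran from -0.91 to 1.80, with 18 above 0 (64.3%, against 59.0% of all measured genes) and 22 within 0.5 of it (85.7% of all genes were). In 23 of the 28 the SD over probesets was larger than the size of the difference. This was not counted over all measured genes. Their median SD was 0.6 and 85.7% of them lay within 0.5 of 0, so the count is not read as particular to the members.

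**Figure D2:**
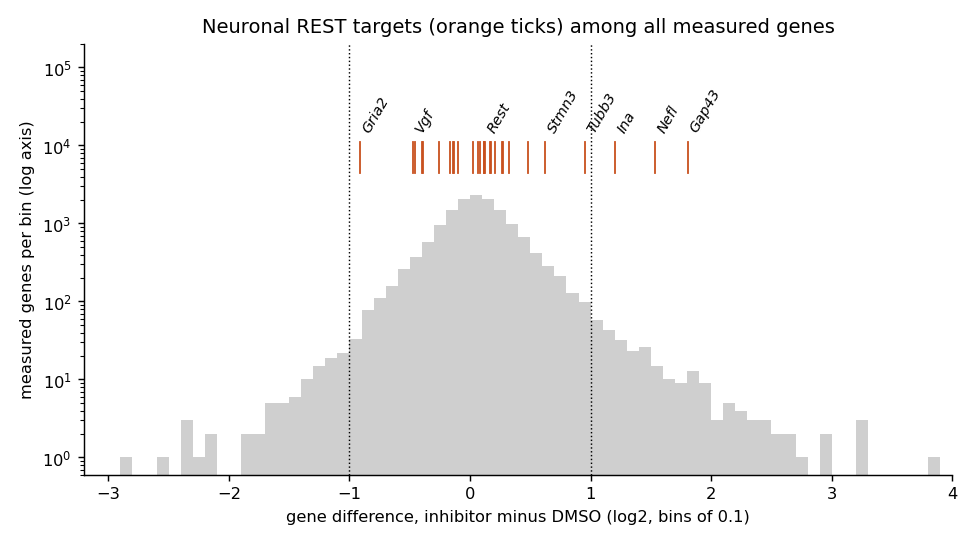
Number of measured genes per 0.1 of difference in log2 on a log axis (grey bars), with each of the 28 measured members as an orange tick above them and dotted lines at -1 and 1. Most ticks lie over the bulk of the genes, with Gria2 at -0.91 at the low end and Ina, Nefl and Gap43 beyond 1 at the high end.

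Rest itself, the repressor, was bright in all 11 probesets. Its level was 7.61 with DMSO and 7.78 with the inhibitor. The difference was 0.12 (SD 0.34), with 6 probesets higher and 5 lower, and it turned to -0.03 in 1 of 13 alternative settings. Its probesets fell into 7 between 7.25 and 9.25 and 4 between 4.27 and 4.78 in the DMSO array, and the same 4 were the lowest with the inhibitor. Insm1, a repressor that acts in neuroendocrine development and carries a SNAG domain, had levels of 4.71 and 5.46. Its difference was 0.16 (SD 1.04). A single probeset of Insm1 differed by 1.95, and its other 3 bright ones lay between -0.45 and 0.23. Neurod1, a basic helix-loop-helix factor of neurons and pancreatic islets, had all 3 probesets lower with the inhibitor, by -0.53 in the median, and was not measured by the rule.

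Among genes of the growth cone and of microtubules, Gap43 stood highest. Gap43 encodes a membrane protein of growing axons. Its 6 probesets read between 4.13 and 8.11 with DMSO and between 6.27 and 9.60 with the inhibitor. All 6 were higher, by 1.17 to 2.31. The levels were 6.67 and 8.32, and the difference of 1.80 (SD 0.47) is 3.49-fold. Of all measured genes 99.7% had a lower difference. Over 12 alternative settings it lay between 1.76 and 1.83.

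Tubb3 encodes the beta tubulin used as a marker of young neurons. Its levels were 6.70 and 7.66, and the difference of 0.95 (SD 0.58) is 1.93-fold, just short of 2-fold. Of its 8 probesets 7 were higher, between 0.01 and 1.38, and 1 was lower by -0.26. Beta tubulin genes are close relatives, and probes of Tubb3 could bind their transcripts, which was not tested. The widely expressed Tubb5 differed by -0.01, Tubb4b by -0.07 and Tubb6 by 0.32. The stathmins bind free tubulin, and neither of the 2 members passed the rule. Stmn2 had levels of 5.79 and 5.38 and differed by -0.40 (SD 0.17), with 7 of 7 bright probesets lower, by 0.01 to 0.41 in size. Stmn3 had levels of 3.38 and 3.77, and its difference of 0.63 over 8 bright probesets (5 higher, 3 lower) turned to -0.17 when all 14 probesets were used. Stmn1, the stathmin of dividing cells, differed by 0.16. Dcx, doublecortin of migrating neurons, had 3 bright probesets of 12 and levels of 2.28 and 1.91 over all of them.

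**Figure D3:**
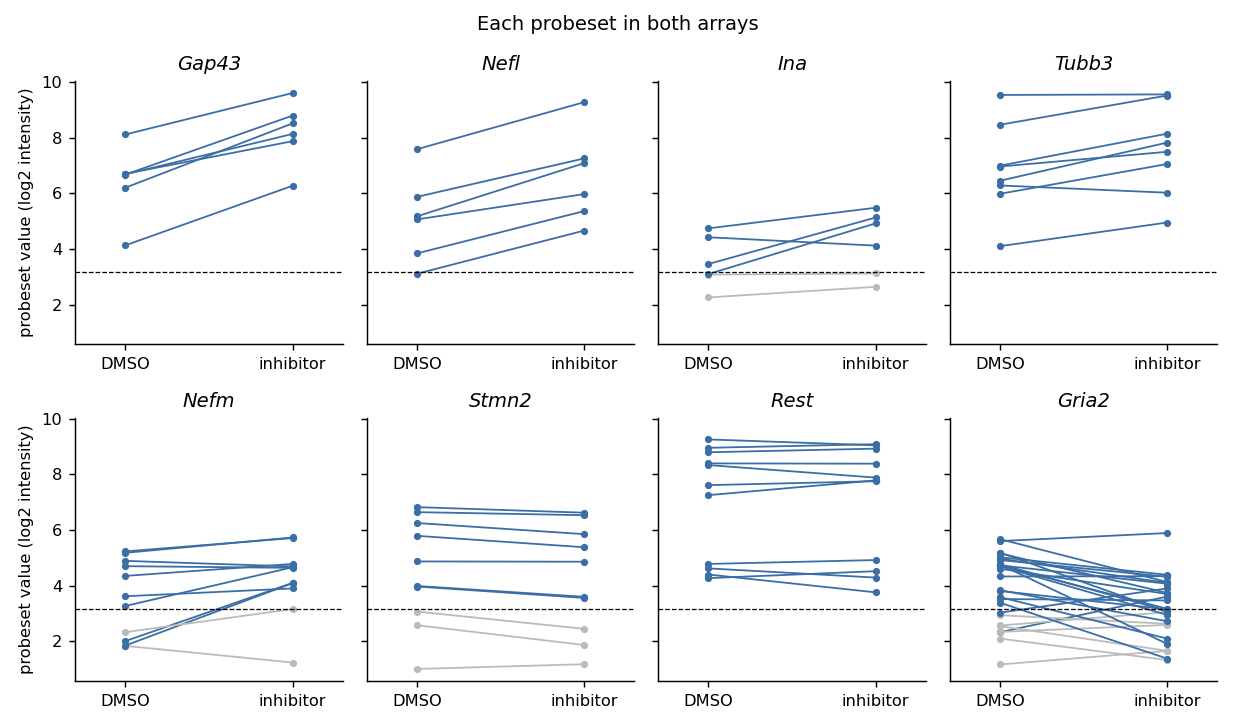
Value of every probeset of 8 members in the DMSO and the inhibitor array, in log2 intensity, with 1 line per probeset, blue where bright and grey where dim, and the table's median dashed. All lines rise for Gap43 and Nefl, those of Rest are nearly level, and 17 of the 21 bright ones fall for Gria2.

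The intermediate filaments of neurons differed from each other. Nefl, the light neurofilament chain, had levels of 5.12 and 6.53 and was 2.90-fold higher with the inhibitor (difference 1.54, SD 0.34). Its 6 probesets read 3.11, 3.84, 5.06, 5.17, 5.87 and 7.58 with DMSO and 4.66, 5.36, 5.97, 7.08, 7.25 and 9.27 with the inhibitor. Each of the 6 was higher, the least of them by 0.91. Ina encodes internexin alpha, a filament of early neurons, and had levels of 3.94 and 5.03. Its difference of 1.20 (SD 0.98, 2.30-fold) rests on 4 bright probesets, which differed by 1.82, 1.67, 0.74 and -0.30. It passed the direction rule at its limit of 75%, and with its 2 dim probesets included the difference was 0.56, below the rule. As a mean over the bright probesets it was 0.98, also below it.

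Nefm, the medium chain, had levels of 4.35 and 4.66 and a difference of 0.48 (SD 0.89). Of its 9 bright probesets 7 were higher. The 3 largest differences of Nefm, 1.39, 2.09 and 2.24, came from probesets that read between 1.85 and 3.27 with DMSO, and the other 6 lay between -0.20 and 0.55. Nefh, the heavy chain of mature axons, went the other way, with levels of 4.85 and 4.46, a difference of -0.26 (SD 0.73) and 9 of 12 bright probesets lower. The 4 filament genes thus gave 2 higher past the rule, Ina at its limit, and 2 that passed in neither direction. Of all measured genes 1.72% were higher and 0.563% lower. The list was chosen with earlier results of these data known, so no excess is read from this count. Vimentin gene Vim, the filament of mesenchymal and endothelial cells, differed by 0.64 with 16 of 16 bright probesets higher, and passed at 1.5-fold but not at 2-fold.

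None of the 7 genes of synaptic vesicles and their fusion passed the rule, and their differences lay between -0.17 and 0.27. Of all measured genes 1.72% were higher and 0.563% lower, so none of 7 does not set this group apart. The calcium sensor gene Syt1 differed by 0.27, but by -0.17 when all 19 of its probesets were used, of which 9 were bright. Syt4, a relative that does not sense calcium in the same way, differed by -0.17 (0.06 over all probesets). The SNARE genes gave differences of 0.08 for Snap25, with 8 bright probesets of 18, and 0.07 for Stx1a. Syp, the vesicle membrane protein synaptophysin, differed by 0.03, with probesets from -1.97 to 2.17. Syn1, synapsin 1, which tethers vesicles and whose window holds an RE1-like sequence, had levels of 5.243 and 5.004 and differed by -0.14 (9 of 14 bright probesets lower). Sv2a, a vesicle glycoprotein, had levels of 4.90 and 4.35 but a probeset difference of 0.12, with 6 of 9 probesets higher, so its 2 summaries disagree in sign. Of their widely expressed relatives, Snap23 differed by 0.42, Stx3 by 0.49 and Stx2 by -0.34.

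Cargo of dense-core granules and secreted factors gave no member past the rule either, with differences of the 5 measured genes between -0.48 and 0.33. At 1.72% of all measured genes higher and 0.563% lower, none of 5 does not set this group apart. Chromogranin gene Chga differed by 0.11 and Chgb by -0.10 (0.12 over all probesets). Scg3, a sorting protein of granules, was dim with DMSO at 3.08 and differed by 0.33 with 3 probesets higher and 3 lower, or by -0.18 over all probesets. Scg2 read 2.08 and 2.24 over all 5 probesets. Vgf, a secreted peptide precursor, had levels of 5.08 and 4.83 and differed by -0.48 (SD 0.79), with 6 of 8 probesets lower. Bdnf, the neurotrophin, had levels of 3.76 and 3.30 and a difference of -0.46, with probesets spread from -2.03 to 2.47. The RNA-binding proteins of neurons differed in sign, with Elavl3 at -0.39 (-0.06 over all probesets) and Elavl4 at 0.27, and their ubiquitous relative Elavl1 was at 0.10.

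Gria2 was the lowest member. It encodes the AMPA receptor subunit that limits calcium entry, and its window holds the closest RE1-like sequence among the members. Its level was 4.72 with DMSO and 3.61 with the inhibitor. The difference of -0.91 (SD 1.01) is 1.89-fold downward, with 17 of 21 bright probesets lower and 4 higher. Of all measured genes 0.815% had a lower difference. Over all 27 probesets the levels were 4.33 and 3.15, the latter below the table's median, and the difference was -0.77. It lay between -0.93 and -0.66 over 13 alternative settings.

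The sodium channel gene Scn2a was mostly dim, with 14 bright probesets of 34, levels of 1.84 and 2.42 over all of them and a difference of 0.17 over the bright ones. The adhesion receptors Celsr2 and Celsr3, which take part in planar polarity of cells and axons, have the most probesets of the list. Celsr2 differed by -0.13 with 24 of 55 bright probesets higher, and Celsr3, whose window holds an RE1-like sequence, by 0.21 with 23 of 36 higher, although its levels of 4.38 and 4.34 run slightly the other way. The related Celsr1 differed by 0.00 with 11 of 22 higher. The 3 members with an RE1-like sequence in the window thus differed by -0.91, -0.14 and 0.21. The members higher past the rule, as 1.72% of all measured genes were, were not among them. Gap43 and Nefl have no window, so only Ina could have been, and the missing overlap says little.

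**Figure D4:**
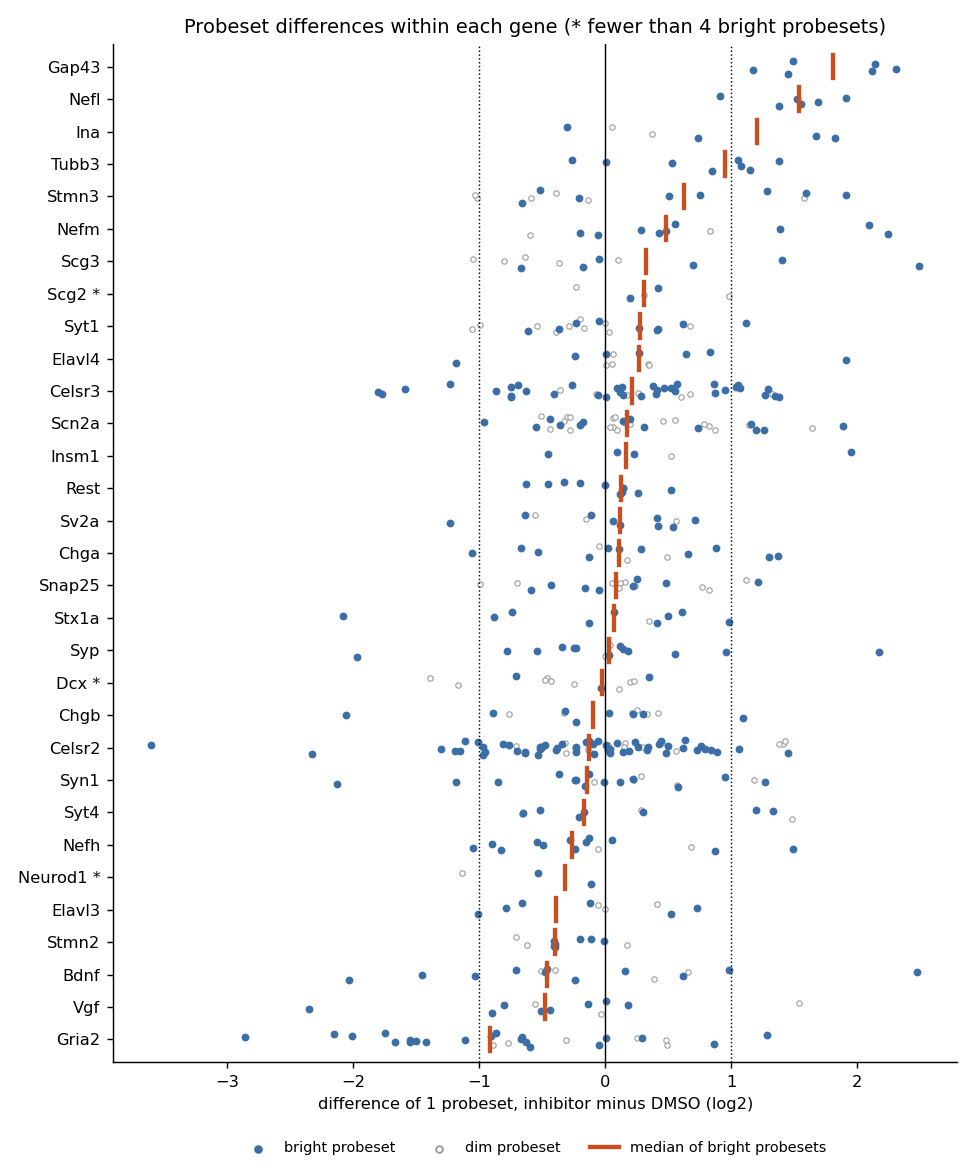
Difference of every probeset of each member (inhibitor minus DMSO, log2), blue where bright and open where dim, with the median of the bright ones as an orange bar and genes ordered by it; an asterisk marks genes with fewer than 4 bright probesets. The bright points of Gap43 and Nefl all lie at 0.91 or above, those of Stmn2 all lie below 0, and for most other genes they fall on both sides of 0.

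The corepressor that joins REST to LSD1 was nearly level between the arrays. Of 23 listed genes of these complexes 21 were measured, with differences from -0.31 to 0.47 and a median of 0.09. None passed the 2-fold rule, where 1.72% of all measured genes were higher and 0.563% lower. None passed the 1.5-fold rule either, where 5.85% were higher and 2.66% lower. With shares this small, none among 21 says little about these genes as a group. Rcor1 had levels of 7.81 and 7.78 and differed by -0.04, with a turned sign in 1 of 13 alternatives. Kdm1a, which encodes the drug's target, had levels of 8.19 and 8.20 and differed by 0.14; the inhibitor acts on the protein, so this does not check the treatment. Of these 21, 13 lay above 0 and 8 below. The furthest from 0 were all upward. They were Rcor2, a paralogue of CoREST, at 0.47 with 12 of 13 bright probesets higher, and Phf21a, a reader of unmethylated histone H3, at 0.43. Sin3b, scaffold of the other REST repressor arm, was at 0.40, although its levels of 5.51 and 5.34 run the other way. Ctdsp2, a phosphatase recruited by REST, was at 0.35. The lowest was Gse1 at -0.31 with 17 of 19 bright probesets lower. Of the 5 genes of REST turnover and splicing none passed, and at the same shares of all measured genes this does not set them apart. Btrc, the ubiquitin ligase part that marks REST for degradation, differed by 0.09, the deubiquitinase gene Usp15 by -0.10, Prickle1 by 0.15, and Srrm4, the splicing factor of neurons that changes the Rest transcript, by -0.26 (0.19 over all probesets).

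Of 35 further REST targets, 28 were measured, and their median was 0.05. Past the rule 1 was higher and 1 lower, where 1.72% and 0.563% of all measured genes were. Gad2, which makes the transmitter GABA, had levels of 5.97 and 7.05 and was 2.11-fold higher with the inhibitor (difference 1.08, SD 0.45), with 24 of 24 bright probesets higher. It passed the rule in 13 of 13 alternatives. Its relative Gad1 differed by -0.11. Chrnb2, a nicotinic receptor subunit, had levels of 5.43 and 3.63 and differed by -1.31 (SD 0.87) over 5 bright probesets of 7. With its dim probesets kept it was at -0.79, and with every value under 3.17 set to 3.17 it was at -0.38, so it no longer passed. Next in size were Rab3c (0.68), Nrxn3 (0.55), Rab3a (0.53) and Cplx1 (0.48), genes of the presynaptic side, none past the 2-fold rule. Over all probesets Rab3c was at 0.24 and Nrxn3 at 0.27.

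Among genes of SNAG-domain factors, 2 of 10 measured were higher past the rule, Gfi1 at 2.43 and Gfi1b at 1.56, and none was lower. The shares of all measured genes were 1.72% higher and 0.563% lower. Snai1, a repressor of epithelial genes, differed by 0.93 with 5 of 5 bright probesets higher, Snai2 by -0.15, Ovol1 by -0.40, Ovol2 by 0.32 and Insm2 by -0.19. The neuronal SNAG factors Insm1, Scrt1 and Scrt2 lay at 0.16, -0.09 and 0.05.

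Of 11 markers of hemogenic endothelium and blood, all were measured. Most of the listed neural markers were measured too, so this does not check the tissue of the sort. Itga2b, which encodes CD41, was at 6.191 and 5.996 and Runx1, a regulator of blood formation, differed by 0.11 with 12 of 16 probesets higher. Past the 2-fold rule 2 of these markers were higher with the inhibitor, Gfi1 and the endothelial cadherin gene Cdh5 (2.11). The embryonic globin gene Hbb-y (-1.89) was the 1 lower. The shares of all measured genes were 1.72% higher and 0.563% lower. The endothelial genes Pecam1 (0.96), Tek (0.91) and Kdr (0.79) and the blood genes Gata1 (-0.73) and Kit (-0.66) passed at 1.5-fold but not at 2-fold. Ptprc, which encodes CD45, had 14 bright probesets of 45. Over all of them its levels were 2.29 and 2.14, below the table's median in both arrays. The part of these markers in the differences of the neuronal genes was not tested. In sorted bulk cells, more RNA per cell and more cells that hold a transcript cannot be told apart.

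Markers of neural cells gave no gene past the 2-fold rule, where 1.72% of all measured genes were higher and 0.563% lower. At 1.5-fold Nes and Slc17a7 were higher and none was lower, where 5.85% and 2.66% of all measured genes were. Of 12 neural progenitor markers 9 were measured, at levels from 3.42 to 5.45 with DMSO and from 3.64 to 6.26 with the inhibitor. Fabp7 had no bright probeset of 3, and Zic1 differed by 0.33, Sox1 by -0.31 and Neurog2 by 0.19. The furthest was Nes, nestin, which endothelium also expresses, at 0.61 with 20 of 21 bright probesets higher. Of 7 neural crest markers 5 were measured, from 3.52 to 4.80 with DMSO and from 3.41 to 5.16 with the inhibitor. Erbb3 differed by 0.38 (0.05 over all probesets), Tfap2b by 0.31 (-0.07), Sox10 by 0.18 (0.17) and Tfap2a by -0.05 (0.13). Of 10 markers of mature neurons outside the members 8 were measured, from 3.39 to 5.83 and from 3.34 to 5.93, with Slc17a7, a glutamate transporter of vesicles, furthest at 0.81 (0.07 over all probesets), Slc17a6 at 0.52, Slc32a1 at 0.42 and Map2 at -0.30. The levels of Slc17a6, 3.45 and 3.34, and of Tfap2b, 3.52 and 3.41, run the other way from their differences. The part of neural cells in the result was not tested.

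**Figure D5:**
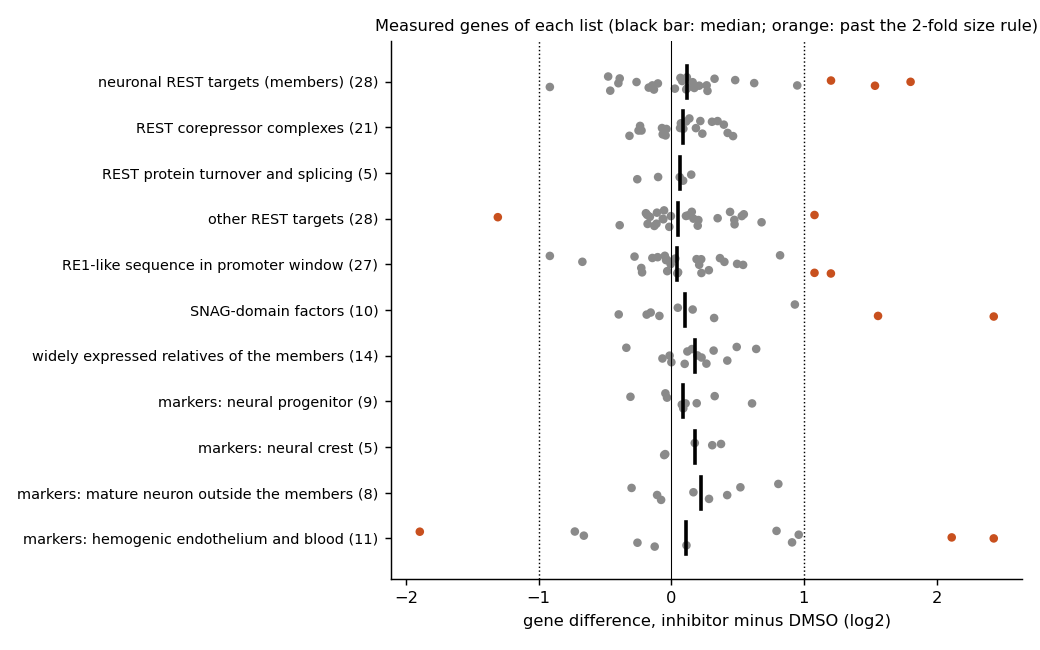
Difference (inhibitor minus DMSO, log2) of each measured gene by list, with the number measured in brackets, the list's median as a black bar, genes past the 2-fold size rule in orange and dotted lines at -1 and 1. The medians of all lists lie between 0.05 and 0.23, and single genes rather than whole lists lie beyond the dotted lines.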

How the data were processed

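For each of 2 arrays the deposited table gives a value per probeset, which was read as log2 intensity because the values run from 0.157 to 13.5. How the authors summarised and normalized it is not given in the sources used here. Of 1048575 probesets, 270105 carry 1 gene symbol in the platform annotation and 5737 carry several, which were left out. That total is the most rows a spreadsheet sheet takes below a header line, so some probesets of the array may be missing from the table. Older symbols (4167) were updated through RefSeq synonyms. Values were used as deposited, with Python 3.11.15, pandas 2.3.3 and NumPy 2.4.6, and the gene summary and motif search were first tested on simulated data with known answers. With 1 array a group there is no p-value and no SD between samples. Groups came from the sample titles. The members and lists were chosen with earlier results of these data known, and the promoter search was added after them. All 31 members are named. Of the other lists, Rcor1, Kdm1a, genes past the size rule and up to 4 others with the largest absolute difference are named; further genes of these lists were added after their values were seen. The alternatives were 13 changes of normalization (lowess span 0.2 among them), filter, summary or threshold. The number of arrays limits the precision.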

Additional observations from a re-analysis of the deposited data

How the results depend on the processing

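Across 13 alternatives the count of members higher past the size rule was 2 to 4, except that it was 0 when at least 8 bright probesets were required, a setting that leaves out Gap43, Nefl and Ina because they have fewer. The count lower was 0 except at a 1.5-fold threshold, where it was 1, Gria2. The median difference of the members ran from 0.05 to 0.14 and moved by no more than 0.1; that of all genes ran from 0.05 to 0.09. Gap43 and Nefl passed in all 12 alternatives that measured them, and Ina fell below the rule in 2 of 11. Of 28 measured members 8 changed sign in at least 1 setting, none of them past the rule. No paired analysis was possible because each group has 1 array. With dim probesets kept, Syt4, Syt1, Stmn3, Chgb and Scg3 changed sign.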

Other observations

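The RE1-like sequence was also used as a list of its own, after the data were seen. It was in the windows of 36 genes, of which 27 were measured, with differences from -0.91 to 1.20 and a median of 0.05, against 0.06 over all measured genes. Past the size rule 2 were higher, Crip2 and Gad2, where 1.72% of all measured genes were, and 0 were lower, where 0.563% were; no test of this difference was made. Crip2 had levels of 7.76 and 9.01, with 7 of 7 bright probesets higher (difference 1.20, SD 0.14 over probesets). The genes named next were also chosen after their values were seen. The axon guidance receptor gene Robo2 differed by 0.50 with 23 of 27 bright probesets higher, Amer3 by 0.82 and Lhfpl5 by -0.67. Lhx3, a homeobox gene of pituitary and motor neurons and the gene whose window holds the element without a mismatch, differed by -0.22 with 6 of 7 bright probesets lower.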
